A study of Homo sapiens with 7 samples.

Results

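Sites of the AML1-ETO fusion protein, of native AML1, and of N-CoR, p300 and H3K4me3 were examined at 9 genes that carry signals inside myeloid cells, namely LYN, FGR, FES, SYK, FCER1G, PLCG2, VAV1, INPP5D and PTPN6. The genes were chosen by name out of 20163 protein-coding genes, with earlier results of these data known. A summit was assigned to a gene when it lay in the gene body or within 5 kb of either end. All libraries came from Kasumi-1, an established human myeloblast line with the t(8;21) translocation, the source of AML1-ETO. The cells were grown in log phase, with no treatment named, and fixed with formaldehyde. AML1 was recovered with an antibody to the part of the protein that the fusion lacks, and AML1-ETO with an antibody to ETO. The other antibodies recognised the co-repressor N-CoR, the co-activator p300 and H3K4me3, a histone mark of active transcription starts. Each of the 5 antibodies is represented by 1 list of peak summits, called by the authors after pooling the biological replicates, so no spread between replicates can be given and no test was made. The lists hold positions without heights or read counts, so the number of reads behind a summit is unknown. The names of the peaks carry the prefix of another protein in the N-CoR, p300 and H3K4me3 lists, and the protein was taken from the sample labels. No other cell line or state was compared. H3K27me3 and the input control were not analysed here.

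Immune receptors of myeloid cells pass their signal on through tyrosine phosphorylation. A Src-family kinase such as LYN or FGR phosphorylates an activation motif in the tail of an adapter such as FCER1G, the shared gamma chain of Fc receptors, and the kinase SYK docks on the phosphorylated motif and becomes active. Signalling then spreads through VAV1, a guanine nucleotide exchange factor, and PLCG2, a phospholipase whose products release calcium and activate protein kinase C. The phosphatases PTPN6 (SHP-1) and INPP5D (SHIP-1) oppose these steps, the former on phosphotyrosine and the latter on a membrane lipid made by PI3-kinase. FES is a cytoplasmic tyrosine kinase of a separate family that is found mainly in myeloid cells. N-CoR recruits histone deacetylases and p300 is a histone acetyltransferase, and both are known to interact with AML1-ETO.

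The sequences beneath 9 AML1-ETO summits are shown because N-CoR, and where possible p300 as well, met the fusion protein there. For 8 genes it is the site of this kind nearest to an annotated start that could be shown, and PLCG2 has a second one. They are the plus strand of GRCh37, written 5′ to 3′ and read from the reference genome. Capitals mark the Runx consensus TGTGGT (which reads ACCACA on the opposite strand), the ETS core AGGAAG (opposite strand CTTCCT) and the PU.1 consensus GAGGAA (opposite strand TTCCTC). The letters GAGGAAG hold both the ETS core and the PU.1 consensus, which overlap there. FGR is transcribed from the minus strand and the other genes shown from the plus strand. Bases annotated as untranslated exon were left out. Those left out at FCER1G hold the Runx consensus and a further AGGAAG, and those left out at SYK a further GAGGAAG. No sequence is shown for LYN, although both co-regulators met the fusion protein there at 5936 and 93330 bp from the start.
FCER1G, chr1:161184964-161185023: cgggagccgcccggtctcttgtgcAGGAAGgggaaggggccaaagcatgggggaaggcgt
SYK, chr9:93563994-93564068: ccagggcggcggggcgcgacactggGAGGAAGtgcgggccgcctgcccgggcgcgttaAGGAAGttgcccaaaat
FGR, chr1:27958289-27958388: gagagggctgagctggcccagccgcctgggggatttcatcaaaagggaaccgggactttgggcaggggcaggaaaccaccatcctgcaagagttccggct
FES, chr15:91427591-91427676: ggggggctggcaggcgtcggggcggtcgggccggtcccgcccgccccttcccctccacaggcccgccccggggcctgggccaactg
VAV1, chr19:6772667-6772718: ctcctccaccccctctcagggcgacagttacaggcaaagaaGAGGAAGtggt
PLCG2 first site, chr16:81856862-81856961: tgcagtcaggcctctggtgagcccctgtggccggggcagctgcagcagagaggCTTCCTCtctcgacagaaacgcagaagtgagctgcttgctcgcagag
PLCG2 second site, chr16:81865420-81865519: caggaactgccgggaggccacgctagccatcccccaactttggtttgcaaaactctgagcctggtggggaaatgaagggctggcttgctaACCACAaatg
PTPN6, chr12:7063064-7063163: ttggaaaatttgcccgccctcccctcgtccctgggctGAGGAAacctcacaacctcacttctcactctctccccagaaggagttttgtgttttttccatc
INPP5D, chr2:234074634-234074733: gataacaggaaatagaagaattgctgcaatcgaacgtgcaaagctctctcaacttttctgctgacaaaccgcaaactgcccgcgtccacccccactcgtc

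All 9 genes held AML1-ETO summits, from 2 at FES and FCER1G to 7 at LYN, SYK and VAV1, 44 in all. At least 1 AML1-ETO summit was found at 41.3% of protein-coding genes, and 2 or more, as at every member, at 18% of them. LYN, FGR, SYK, PLCG2, VAV1 and INPP5D had 4 or more (4.79% of protein-coding genes), and LYN, SYK and VAV1 had 7 or more (1.06%). The median length of the members was 84659 bp, against 27219 bp over all protein-coding genes, although FCER1G, FES, PTPN6 and FGR were shorter than the latter. Within the range of lengths that the members span, 43.1% of 15423 genes had 1 or more AML1-ETO summits and 18.1% had 2 or more. This range holds most of the 20163 protein-coding genes, so it does not match them to the members in length. Per length, the members held 5.26 AML1-ETO summits per 100 kb of gene and flank, against 0.922 over the span of all protein-coding genes.

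AML1 summits numbered 20 and were present at all 9 genes, whereas 34.9% of protein-coding genes had one. N-CoR was also present at every member, with 31 summits, against 26.7% of protein-coding genes. The 19 p300 summits lay at 7 genes and were missing from FGR and FCER1G, and 45.5% of protein-coding genes held p300. H3K4me3 had 11 summits at 8 genes, all but FCER1G, and was found at 68% of protein-coding genes. Per 100 kb the members held 2.39 AML1, 3.71 N-CoR, 2.27 p300 and 1.31 H3K4me3 summits. Over the span of all protein-coding genes they were 0.586, 0.503, 0.664 and 1.24, so that the difference in density was smallest for H3K4me3.

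**Figure D1:**
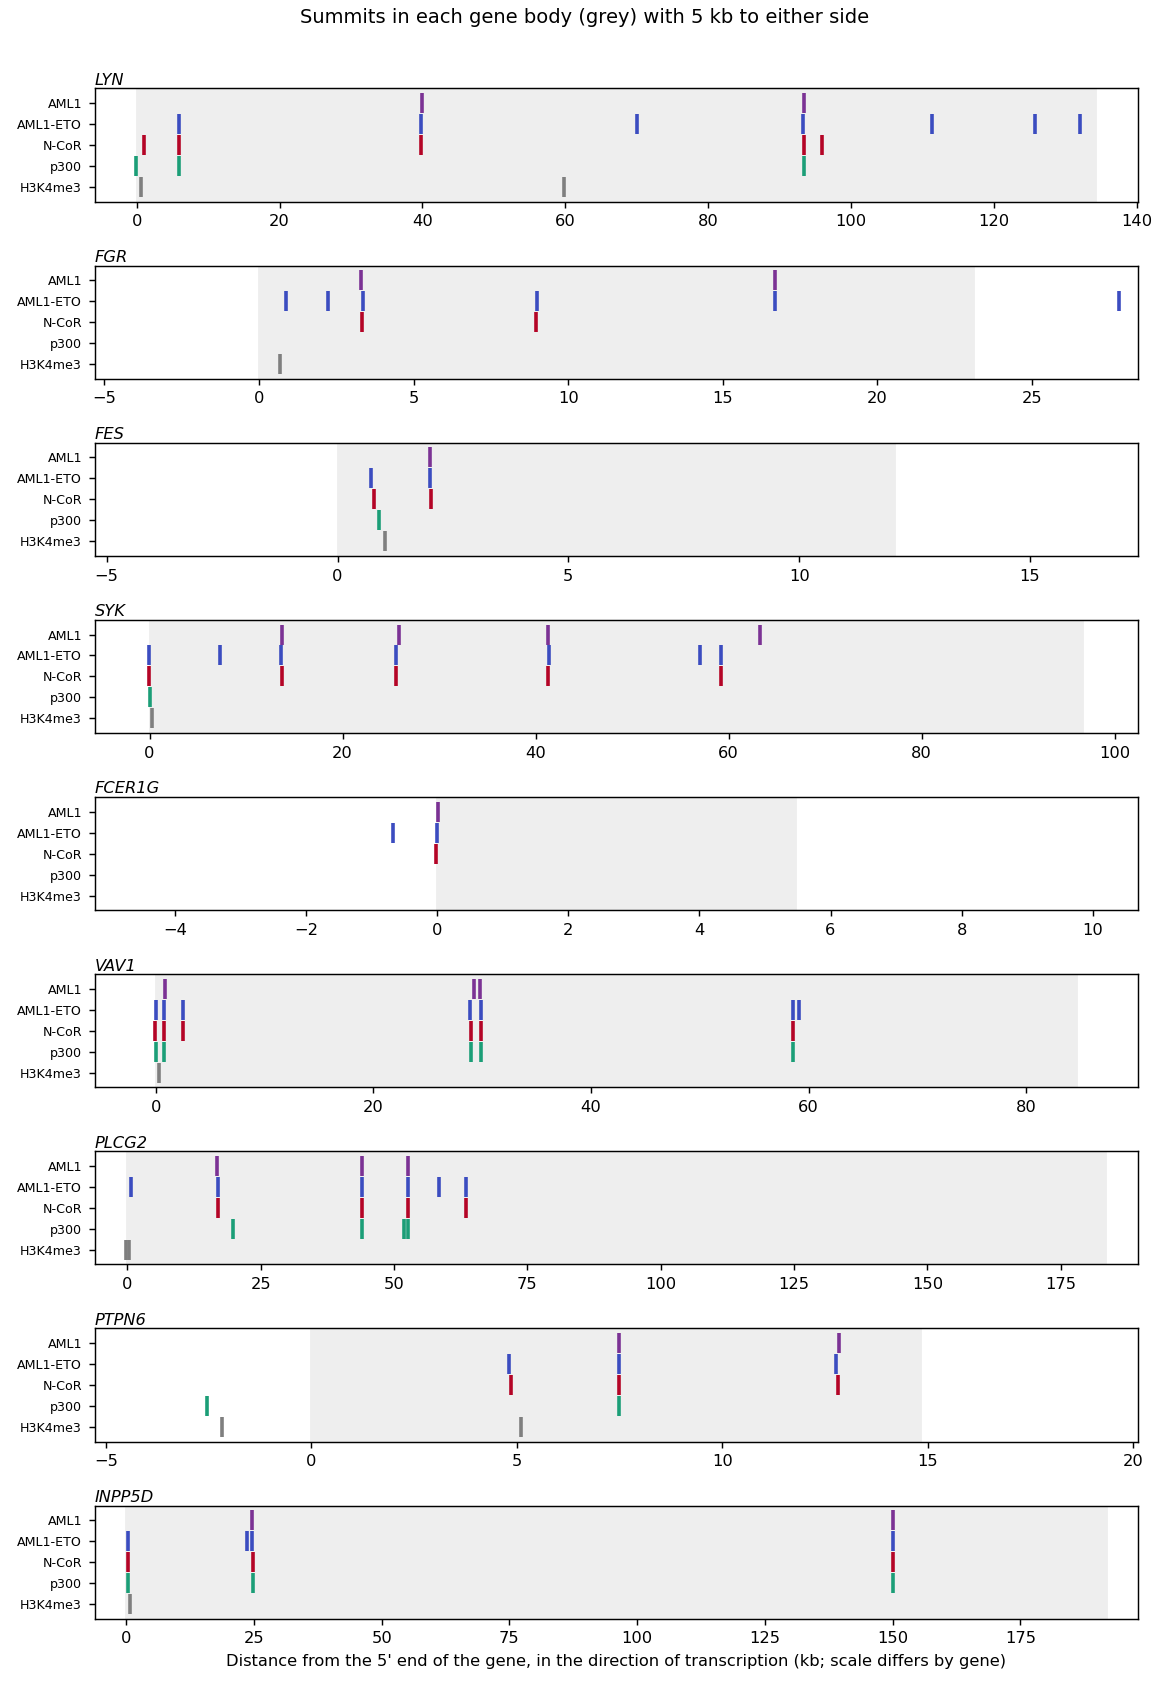
Position of every summit of the 5 lists in the body of each of the 9 genes (grey) and 5 kb to either side, as the distance from the 5′ end of the gene in kb, with a scale of its own for each gene. Each bar is 1 summit, and bars stacked above each other are sites shared by several proteins, such as those of VAV1, which has 7 AML1-ETO, 6 N-CoR and 5 p300 summits.

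FCER1G is the smallest of the genes, 5466 bp on the plus strand of chromosome 1 (161185024 to 161190489), and its sites were gathered at the start. An AML1-ETO summit stood 11 bp upstream of the 5′ end of the gene, with N-CoR 19 bp upstream and AML1 5 bp downstream of that end. A second AML1-ETO summit, 669 bp upstream, overlapped neither co-regulator. The nearest p300 summit was 10878 bp from the canonical start and the nearest H3K4me3 summit 10948 bp from it. FCER1G was thus the member with AML1, AML1-ETO and N-CoR at its start and no H3K4me3 summit within 5 kb.

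Among the Src-family kinases, LYN spans 134335 bp on chromosome 8 (56792394 to 56926728) and held 7 AML1-ETO, 2 AML1, 5 N-CoR, 3 p300 and 2 H3K4me3 summits. The AML1-ETO summits lay 5936, 39865, 70050, 93330, 111381, 125726 and 132031 bp downstream of the start. The last of these is in an untranslated part of exon 13, and the others are in introns. Those at 5936 and 93330 bp overlapped N-CoR and p300, that at 39865 bp overlapped N-CoR, and the remaining 4 overlapped neither. The start itself had p300 28 bp upstream, H3K4me3 669 bp downstream and N-CoR 969 bp downstream, and no AML1-ETO summit within 1000 bp. LYN was the one member without AML1-ETO near any of its annotated starts. It also held both of the N-CoR summits, at 969 and 95948 bp, that overlapped no AML1-ETO window.

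FGR, a Src-family kinase of granulocytes and monocytes, lies on the minus strand of chromosome 1 (27938575 to 27961696) and held 6 AML1-ETO, 2 AML1, 2 N-CoR, 0 p300 and 1 H3K4me3 summits. AML1-ETO was placed 882, 2229, 3358, 8977 and 16695 bp into the gene, and once more 4709 bp past its end. N-CoR overlapped the sites at 3358 and 8977 bp, with summits 11 and 6 bp away. The second of these stands 32 bp from an annotated internal start. The nearest p300 summit to the canonical start was 57548 bp away, and H3K4me3 peaked 684 bp downstream of that start. AML1 overlapped the AML1-ETO sites at 3358 and 16695 bp, and the latter was the one site among the 9 genes that had AML1 without a co-regulator.

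SYK, 96763 bp on chromosome 9 (93564069 to 93660831), held 7 AML1-ETO, 4 AML1, 5 N-CoR, 1 p300 and 1 H3K4me3 summits. At the start, AML1-ETO lay 26 bp upstream of the 5′ end of the gene, N-CoR 19 bp upstream and p300 5 bp downstream. Inside the gene N-CoR accompanied AML1-ETO without p300 at 13647, 25567, 41384 and 59216 bp, and AML1-ETO stood without either co-regulator at 7264 and 57001 bp. The site at 25567 bp is 134 bp upstream of an internal start. AML1 overlapped AML1-ETO at 41384 bp. The other AML1 summits of SYK lay 126 and 269 bp from the nearest AML1-ETO summit and, at 63264 bp in exon 6, 4048 bp from it.

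FES, 12082 bp on chromosome 15 (91426925 to 91439006), held 2 AML1-ETO, 1 AML1, 2 N-CoR, 1 p300 and 1 H3K4me3 summits, all within 2023 bp of its 5′ end. AML1-ETO stood 94 bp upstream of the canonical start and N-CoR 23 bp upstream, a distance of 71 bp between the summits. The p300 summit, 80 bp downstream of that start, was 174 bp from AML1-ETO, which is beyond the 99 bp within which windows overlap. The other AML1-ETO site, in intron 3, overlapped AML1 with a summit 5 bp away and N-CoR with one 22 bp away.

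VAV1 had the most summits of any member, 22 over the 5 lists, in 84659 bp of chromosome 19 (6772719 to 6857377). It held 7 AML1-ETO, 3 AML1, 6 N-CoR, 5 p300 and 1 H3K4me3 summits. AML1-ETO met both co-regulators 3 bp upstream of the start, and at 765, 28915, 29885 and 58559 bp downstream of it. It met N-CoR alone at 2500 bp and neither at 59155 bp. At 765 and 29885 bp the p300 summit was 1 bp from that of AML1-ETO, and N-CoR was 15 and 3 bp away. The sites between 765 and 29885 bp are in intron 1, and the last 2 are in intron 14.

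PLCG2, 183407 bp on chromosome 16 (81812884 to 81996290), held 6 AML1-ETO, 3 AML1, 4 N-CoR, 4 p300 and 2 H3K4me3 summits. None lay beyond 63495 bp from the start, so the rest of the gene held no summit of any list. At 44027 and 52585 bp, both in intron 2, AML1-ETO overlapped N-CoR, p300 and AML1. At the latter site, the second of the printed PLCG2 sequences, p300 peaked 12 bp, N-CoR 20 bp and AML1 22 bp away from AML1-ETO. N-CoR was present without p300 at 16938 and 63495 bp. The AML1-ETO site nearest to the canonical start, in intron 1, overlapped no co-regulator, and 2 p300 summits, at 19767 and 51810 bp, overlapped no AML1-ETO. A long non-coding gene, ENSG00000289733, is annotated on the same strand over all of these sites.

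Of the phosphatases, PTPN6 spans 14849 bp on chromosome 12 (7055631 to 7070479) and held 3 AML1-ETO, 2 AML1, 3 N-CoR, 2 p300 and 2 H3K4me3 summits. PTPN6 has annotated starts near its 5′ end and a second group in the gene, and the AML1-ETO and N-CoR summits lay 66 and 41 bp upstream of the canonical start, which belongs to the second group. An H3K4me3 summit followed 215 bp downstream of that start. At the 5′ end of the gene no summit of any list lay within 1000 bp. AML1-ETO, N-CoR, p300 and AML1 met at 7482 bp in intron 3, where N-CoR peaked 2 bp, p300 7 bp and AML1 13 bp away from AML1-ETO. At 12777 bp, in intron 11, AML1-ETO overlapped N-CoR and AML1, and lay 77 bp upstream of a further annotated start. The remaining p300 and H3K4me3 summits, 2545 and 2175 bp upstream of the gene, lie in C12orf57, 89 and 171 bp from the nearest annotated start, and belong to the flank that PTPN6 shares with that gene.

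INPP5D, the longest member with 191873 bp on chromosome 2 (233924677 to 234116549), held 4 AML1-ETO, 2 AML1, 3 N-CoR, 3 p300 and 1 H3K4me3 summits. AML1-ETO met N-CoR and p300 at 3 sites. The first was 15 bp upstream of the canonical start, with N-CoR 49 bp upstream and p300 24 bp downstream. The others, 24718 and 150006 bp into the gene, also overlapped AML1. The second AML1-ETO site, at 23559 bp, overlapped neither co-regulator. At 24718 bp p300 peaked 4 bp and N-CoR 63 bp from AML1-ETO, so that windows reaching 25 bp from the summits would leave p300 alone there.

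N-CoR overlapped 29 of the 44 AML1-ETO sites, 65.9% (exact Clopper-Pearson 95% interval 50.1 to 79.5%), and did so at least once at each of the 9 genes. Over the whole list of 18087 AML1-ETO summits this share was 38.9%, and it was 37.7% over the 13151 that lie in or within 5 kb of any protein-coding gene. At least 1 such site was found at 19.1% of protein-coding genes. The interval covers counting error over sites, and sites of the same gene are not independent. When the first 50% of each list in deposited order was used, the share was 48.4% of 31 sites (30.2 to 66.9%), an interval that holds the 38.4% of the whole list under the same setting.

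p300 overlapped 14 of the 44 sites, 31.8% (18.6 to 47.6%), at LYN, SYK, PLCG2, VAV1, INPP5D and PTPN6. The share over the whole list was 21.8%, which lies within this interval. When windows reached 25 bp from the summit, p300 overlapped 29.5% (16.8 to 45.2%), and the 16.4% of the whole list lies just below the interval. Each of the 14 also overlapped N-CoR, so that AML1-ETO with p300 and without N-CoR was not found at the 9 genes (0 of 44, interval 0 to 8.04%), against 6.1% of the whole list and 7.47% of its summits in or near genes, which both lie within the interval. With the windows that reach 25 bp, 13 sites held p300 and 12 of them N-CoR as well, the exception being INPP5D at 24718 bp. AML1-ETO with both co-regulators made up 15.7% of the whole list and was found at 10.1% of protein-coding genes. Without VAV1 the share with both was 24.3% (11.8 to 41.2%) and without INPP5D 27.5% (14.6 to 43.9%), and each of these intervals holds the 15.7%. With the first 50% of each list it was 22.6% (9.59 to 41.1%), against 13% of the whole list. A further 15 sites, 34.1% (20.5 to 49.9%), overlapped N-CoR without p300, and the 23.2% of the whole list lies within this interval. The last 15 overlapped neither, 34.1% (20.5 to 49.9%), against 55% of the whole list. The share with neither was 37.8% (22.5 to 55.2%) without VAV1, and 51.6% (33.1 to 69.8%) against 58% when the first 50% of each list was used, and these intervals hold the value of the whole list.

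**Figure D2:**
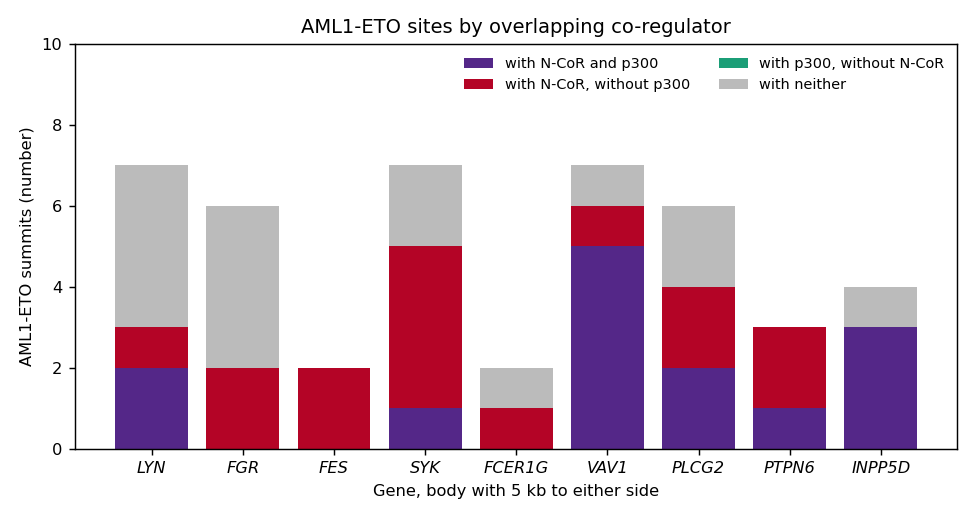
Number of AML1-ETO summits (y axis) at each gene, body and 5 kb to either side, divided by the co-regulators whose 100 bp windows overlapped them. VAV1 has 5 sites with both co-regulators, INPP5D 3, LYN and PLCG2 2 each, and no gene has a site with p300 and without N-CoR.

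The genes differed in these classes. At VAV1 and INPP5D, 5 of 7 and 3 of 4 AML1-ETO sites held both co-regulators, whereas SYK had 4 of 7 with N-CoR without p300. At LYN and FGR, 4 of 7 and 4 of 6 sites held neither. FES and PTPN6 had N-CoR at every AML1-ETO site. With 2 to 7 sites a gene and no replicates, these differences between genes are descriptions.

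Seen from the co-regulators, 29 of the 31 N-CoR summits at the 9 genes overlapped AML1-ETO, 93.5% (78.6 to 99.2%), against 70.3% of the whole N-CoR list. For p300 this was 14 of 19, 73.7% (48.8 to 90.9%), against 35.8% of the whole p300 list. The 5 p300 summits without AML1-ETO were at the start of LYN, at the start of FES, at 2 intronic positions of PLCG2 and in the C12orf57 flank of PTPN6. At the sites with both co-regulators, the median distance from the AML1-ETO summit was 17.5 bp to N-CoR and 13.5 bp to p300. At the 15 sites with neither, the nearest N-CoR summit was 608 to 36083 bp away and the nearest p300 summit 581 to 56996 bp away, so none of them was close to the limit of overlap.

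AML1 overlapped 16 of the 44 AML1-ETO sites, 36.4% (22.4 to 52.2%), and the 46.2% of the whole list lies within this interval. When windows reached 25 bp from the summit it was 22.7% (11.5 to 37.8%), and the 40.2% of the whole list then lies above the interval. Of these 16 sites 15 also held N-CoR. AML1 was present at 15 of the 29 sites with N-CoR, 51.7% (32.5 to 70.6%), and at 1 of the 15 without it, 6.67% (0.169 to 31.9%). Over the whole list these shares were 70.6 and 30.7%. All 4 proteins met at 8 sites, of which PLCG2, VAV1 and INPP5D had 2 each and LYN and PTPN6 had 1 each. These are 18.2% (8.19 to 32.7%) of the 44, and the 11.8% of the whole AML1-ETO list lies within this interval. Of the 20 AML1 summits, 16 overlapped AML1-ETO, 80% (56.3 to 94.3%), an interval that holds the 71.5% of the whole AML1 list. The 4 that did not were 3 in SYK and 1 in VAV1.

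Introns held 35 of the 44 AML1-ETO summits, and 15 of these were in the first intron of the canonical transcript. No share over the whole list is given for introns. A start of the gene lay within 1000 bp of 15 of the summits, 34.1% (20.5 to 49.9%), and the median distance to the nearest start of the gene was 3056 bp. Starts of any gene lay within 1000 bp of 34.5% of the whole AML1-ETO list and of 42.8% of its summits in or near genes. N-CoR was present at 12 of the 15 sites near a start, 80% (51.9 to 95.7%), and at 17 of the 29 others, 58.6% (38.9 to 76.5%). For p300 the shares were 4 of 15, 26.7% (7.79 to 55.1%), and 10 of 29, 34.5% (17.9 to 54.3%). Both pairs of intervals overlap.

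Around the canonical start, AML1-ETO lay within 1000 bp at 8 of the 9 genes, all but LYN, against 18.4% of protein-coding genes. N-CoR did so at 7 genes (10.1% of protein-coding genes), p300 at 5 (34.1%), AML1 at 2 (14.8%) and H3K4me3 at 8 (58.8%). AML1-ETO and N-CoR were both within 100 bp of the canonical start at FES, SYK, FCER1G, VAV1, INPP5D and PTPN6, and 7.6 and 4.47% of protein-coding genes had a summit of the one or the other so close. At SYK, VAV1 and INPP5D p300 joined them within the windows, at FES it was just outside, and at FCER1G and PTPN6 no p300 summit lay within 1000 bp. AML1 was within 100 bp of the start at FCER1G alone (6.18% of protein-coding genes), and H3K4me3 at none of the 9 (1.9%).

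An H3K4me3 summit lay within 1000 bp of an annotated start at 8 of the 9 genes, against 62.3% of protein-coding genes. Of the 11 H3K4me3 summits, 0 overlapped a window of another list (0 to 28.5%). Such overlap was rare over the whole H3K4me3 list too, at 0.525% with AML1, 0.301% with N-CoR, 1.73% with AML1-ETO and 3.59% with p300. At FES, SYK, VAV1, INPP5D and PTPN6 the H3K4me3 summit lay 318, 313, 293, 298 and 281 bp downstream of the AML1-ETO summit at the start, in the direction of transcription. At PLCG2, 1 H3K4me3 summit stood 278 bp upstream of the canonical start and another downstream, and AML1-ETO followed 592 bp downstream of the start. At FGR the AML1-ETO summit was 198 bp farther downstream than that of H3K4me3. Of all 44 AML1-ETO sites, 9 had an H3K4me3 summit within 1000 bp, 20.5% (9.8 to 35.3%), against 27.4% of the whole list and 33.9% of its summits in or near genes. Each of these 9 sites was within 1000 bp of a start of its gene.

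**Figure D3:**
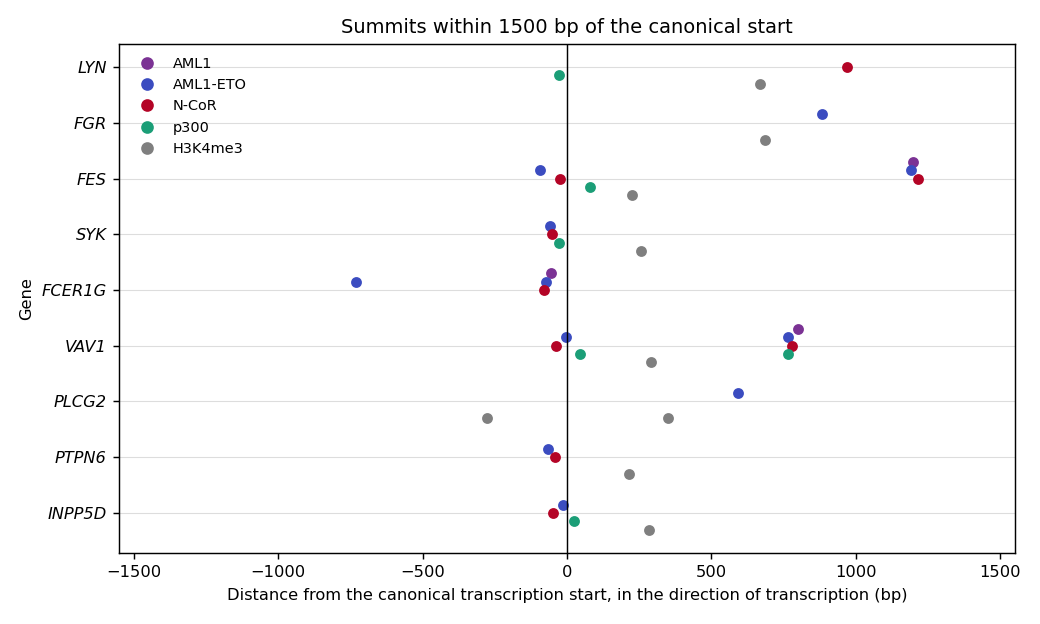
Summits of the 5 lists within 1500 bp of the canonical transcription start of each gene, with the distance in bp in the direction of transcription on the x axis and the lists drawn in separate colours and rows. AML1-ETO and N-CoR sit within 100 bp of the start at 6 of the 9 genes, and at 5 of these an H3K4me3 summit follows 281 to 318 bp downstream of AML1-ETO.

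The ETS letters AGGAAG were found within 50 bp of 23 of the 44 AML1-ETO summits, 52.3% (36.7 to 67.5%). They were found at 37.5% of the whole list, which lies within this interval, and at 35.8% of its summits in or near genes, which lies just below it. These letters were present in 10.9% of windows 1000 bp to either side of the AML1-ETO summits. The PU.1 consensus GAGGAA was present at 16 sites, 36.4% (22.4 to 52.2%), against 26% of the whole list, 24.7% of its summits in or near genes and 8.82% of the windows 1000 bp away. The Runx consensus TGTGGT was present at 9 sites, 20.5% (9.8 to 35.3%), against 31.3% of the whole list, 29% of its summits in or near genes and 6.57% of the windows 1000 bp away. Within 25 bp of the summit the Runx share was 4.55% (0.555 to 15.5%), and the 18.2% of the whole list then lies above the interval. The ETS share was 31.8% (18.6 to 47.6%) within 25 bp, against 21.5% of the whole list, and 70.5% (54.8 to 83.2%) within 100 bp, against 53%, which lies below the interval. The sequences beneath the start sites of SYK, VAV1 and FCER1G shown above hold the ETS letters upstream of the start, and SYK holds them more than once. At VAV1, and at 1 of the matches shown for SYK, they are part of GAGGAAG. The full FCER1G window also holds the Runx consensus, in bases that are not shown. The FES sequence, made up mostly of G and C, holds none of the 3 exact strings, nor do the FGR and INPP5D sequences. Variants were not counted, such as ACCGCA in the INPP5D sequence and AGGAAA in those of FGR and INPP5D. A match says that the letters are there and is not a measurement of binding.

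The Runx consensus was counted separately at sites with and without N-CoR. It was found at 3 of the 29 sites with N-CoR, 10.3% (2.19 to 27.4%), and at 6 of the 15 sites without it, 40% (16.3 to 67.7%), and these intervals overlap. Over the whole list the shares were 28.4 and 33.1%. The second PLCG2 site is the one site with both co-regulators that holds the exact letters TGTGGT, on the opposite strand as ACCACA. Variants such as the ACCGCA of the printed INPP5D site were not counted. ETS letters were found at 17 of the 29 sites with N-CoR, 58.6% (38.9 to 76.5%), and at 6 of 15 without it, 40% (16.3 to 67.7%), against 45.6 and 32.3% over the whole list. Of the 9 sites near H3K4me3, 0 held the Runx consensus (0 to 33.6%) and 6 held the ETS letters, 66.7% (29.9 to 92.5%), and both intervals hold the shares of the whole list.

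**Figure D4:**
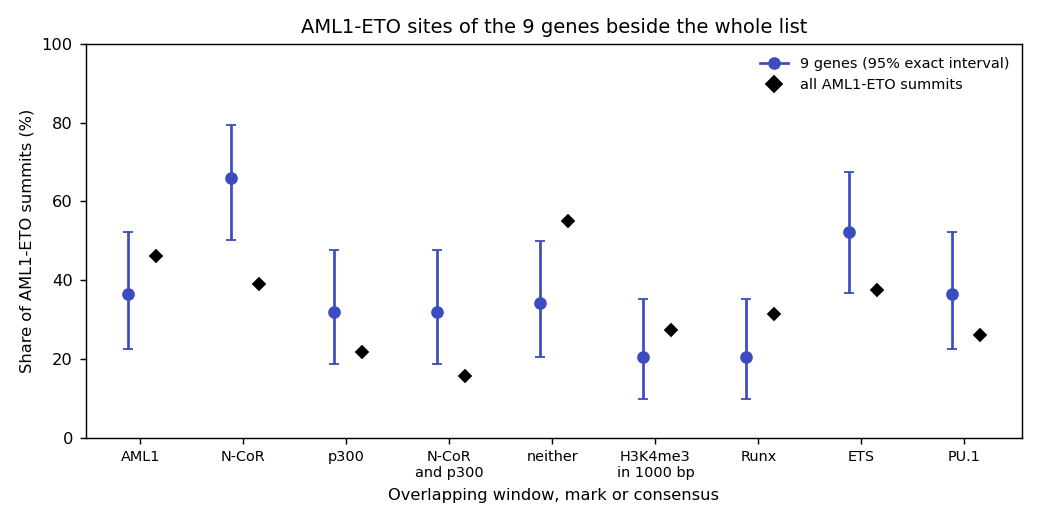
Share of AML1-ETO summits (y axis, in percent) that overlapped another protein, lay within 1000 bp of H3K4me3 or held a consensus within 50 bp, for the 44 summits of the 9 genes (circles, with exact 95% intervals) and for all 18087 summits (diamonds). The diamonds for N-CoR (38.9%) and for N-CoR with p300 (15.7%) lie below the intervals and that for neither co-regulator (55%) lies above, while the other 6 lie within. Without VAV1, the intervals for both and for neither hold the diamonds.

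The deposited lists are numbered in an order that does not follow the genome, and the basis of this order is not given in the sources used here. In the AML1-ETO list the 14 sites with both co-regulators had a median number of 2803, those with N-CoR without p300 5886 and those with neither 10017. The same medians over the whole list were 3734, 5252.5 and 11414. The share with both co-regulators among all summits numbered under 1000 is not given here. Numbers under 1000, in a list of 18087 summits, were held by 5 of the 44 sites of the 9 genes, all with both co-regulators. These are the second PLCG2 site with number 244, the VAV1 sites at 28915 bp, at the start and at 29885 bp with numbers 336, 447 and 588, and the PTPN6 site in intron 3 with number 746.

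Another 28 genes of the same pathway, taken from kinases, adapters, exchange factors, phospholipases and phosphatases, served as a comparison. AML1-ETO summits were found at 24 of them, 69 in all, with a median of 2 a gene and 2.1 per 100 kb. N-CoR overlapped 36 of the 69, 52.2% (39.8 to 64.4%), and p300 overlapped 19, 27.5% (17.5 to 39.6%). Both co-regulators overlapped 15, 21.7% (12.7 to 33.3%). The N-CoR share lies within the members' interval of 50.1 to 79.5%. The shares with p300 and with both lie within the members' intervals, which are each 18.6 to 47.6%. At least 1 site with N-CoR was found at 18 of the 28 genes and at least 1 with both co-regulators at 10. The most AML1-ETO summits were at PIK3CD (9), which encodes a catalytic subunit of PI3-kinase, LCP2 (8), the adapter SLP-76, and CSK (7), the kinase that restrains the Src family. PLCG1 had 0 AML1-ETO summits, PTPN11 had 2 and VAV3 had 4. TYROBP, an adapter with an activation motif like that of FCER1G, had 5, of which 4 overlapped N-CoR, and is named after its values were seen. PLCG1 and PTPN11 had no N-CoR summit, and VAV3 had 3 N-CoR and 3 p300 summits.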

How the data were processed

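ChIP-seq libraries of Kasumi-1 cells were analysed as 5 deposited lists of peak summits. Per the labels and the paper's methods, reads were aligned to GRCh37 (hg19) with Bowtie 0.12.8, the replicates of each antibody were pooled, and peaks were called with MACS2 2.0.10.20131216 at a p-value threshold of 1e-20. Every deposited interval is 100 bp wide. A summit was taken as the start plus 50 bp. The study also compared windows of 50 bp to either side of summits. Here they were counted as overlapping when they shared at least 1 bp, that is with summits at most 99 bp apart. Genes, transcripts and canonical starts came from GENCODE release 44 lifted to GRCh37, the build of the lists, and sequences from the matching genome. Other genes are those the annotation calls protein-coding. The 95% intervals of shares are exact (Clopper-Pearson) and cover the counting of sites alone. The work used Python 3.11.15, SciPy 1.17.1, numpy 2.4.6 and matplotlib 3.10.9, and the counting was tested on simulated data.

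The 9 genes, the comparison list and the consensus sequences were chosen with earlier results of these data known. All 9 genes are named, neighbours where a counted site lies in them (not all are reported here), and of the comparison list the 3 genes with most AML1-ETO summits and PLCG1, VAV3 and PTPN11. TYROBP was added to these after its values were seen. For every gene except LYN, which was left out, sequences were those with both co-regulators, otherwise with N-CoR, nearest to a start. At FGR and INPP5D the next site was taken because fewer than 50 bp lay outside annotated untranslated exons, and the second PLCG2 site was added after its values were seen. Alternatives were other flanks, spans, windows, distances and leaving out each gene.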

Additional observations from a re-analysis of the deposited data

How the results depend on the processing

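Of 86 alternative values, 80 stayed within the 95% interval, or for counts within 1.5 times, of the value reported and 6 did not. Those for sites with both or neither co-regulator were chosen after seeing the data. With 50 kb to either side of the genes the AML1-ETO summits numbered 73 in place of 44. With the first 50% of each list in deposited order, the share of AML1-ETO sites with N-CoR was 48.4% and that with neither co-regulator 51.6%. The Runx consensus was found in 4.55% of sites within 25 bp of the summit, against 18.2% of the whole list, and the ETS letters in 31.8% within 25 bp and 70.5% within 100 bp, against 21.5 and 53%. With the first 50% of each list, the intervals for N-CoR (30.2 to 66.9%), both (9.59 to 41.1%) and neither (33.1 to 69.8%) came to hold the whole list's 38.4, 13 and 58%. Conversely, the whole list came to lie outside the interval for Runx within 25 bp, for ETS within 100 bp, for AML1 with windows of 25 bp (22.7 against 40.2%) and for p300 with windows of 25 bp (29.5%, interval 16.8 to 45.2%, against 16.4%). Leaving out each gene in turn gave 62.2 to 71.1% with N-CoR, 24.3 to 36.8% with p300, and the same range with both, 28.9 to 37.8% with neither, 34.1 to 40.5% with AML1 and 16.7 to 24.3% near H3K4me3. The lowest N-CoR and p300 shares were those without VAV1, and the interval came to hold the whole list's share for both without VAV1 or without INPP5D, and for neither without VAV1. No stricter peak threshold was applied, since the lists hold no score, and whether their order follows peak strength was not tested. No paired analysis was possible because each antibody has a single list. An absent summit means only that no peak passed the authors' threshold, since the lists hold no read counts.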
